A study of Mus musculus with 2 samples.

Results

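The nuclear genes for subunits of the mitochondrial respiratory chain and ATP synthase were examined in hematopoietic stem cell (HSC)-enriched fetal liver (FL) cells with and without the endothelial cell-selective adhesion molecule, ESAM. They were chosen by gene symbol alone: Ndufa, Ndufb, Ndufc, Ndufs and Ndufv genes with a number for complex I, Sdha to Sdhd for complex II, symbols starting Uqcr for complex III, Cox4 to Cox8 for complex IV and Atp5 for complex V, without pseudogenes. The rule took 84 of the 23284 symbols in each library, and no expression value entered it. Of these, 35 were assigned to complex I, 4 to complex II, 8 to complex III, 19 to complex IV and 17 to complex V. The 17 include Atp5s and Atp5sl, which are not structural subunits. The remaining symbol, Cox4nb, is an older name of Emc8, a membrane protein complex gene next to Cox4i1. It is no subunit gene and is counted here only because the rule takes it.

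RNA-seq was performed on LSK CD48- cells (lineage marker-negative, Sca1+, c-kit high) of E14.5 mouse FLs, to look for the molecular basis of impaired blood development without ESAM. There was 1 library from WT fetuses and 1 from ESAM-null fetuses, which lacked Esam in every tissue from conception (a conventional knockout), so endothelial cells of the niche lacked it as well as the sorted cells. The sources used here do not say how many fetuses or cells made up each library. The labels' treatment text describes methylcellulose culture of sorted cells, whereas the study describes the libraries as LSK CD48- cells, and whether RNA was taken before or after culture could not be settled. With 1 library per genotype there is no replicate check and no test, so every difference below is between 2 libraries and not between genotypes.

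Oxidative phosphorylation moves electrons from NADH through complex I, or from succinate through complex II, to ubiquinone, then through complex III and cytochrome c to complex IV, where oxygen is reduced. Complexes I, III and IV pump protons across the inner mitochondrial membrane, and complex V, the ATP synthase, uses the gradient to make ATP. Complex II also works in the citric acid cycle and is the only one of them built from nuclear genes alone. Fetal HSCs are known to rely on mitochondrial respiration more than quiescent adult HSCs do.

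Levels are FPKM, fragments per kilobase of mRNA with a scaling for sequencing depth, so they can be set side by side between genes. The sources used here do not give the scaling of the libraries. Esam, the deleted gene, had levels of 118 FPKM (WT) and 12.1 FPKM (ESAM-null), a 9.69-fold difference (95% counting interval 8.37 to 11.2). About 206 reads remained in the ESAM-null library, against 1833 in WT, and the sources used here do not say which part of the gene the allele lacks. All 6 markers of HSC-enriched cells were measured in both libraries, from 30.2 FPKM (Mecom) to 230 FPKM (Cd34) in WT and from 25.8 to 240 FPKM in ESAM-null. Their median log2 ratio was -0.14. Of 6 erythroid markers, 5 were lower in the ESAM-null library and none was at 0. Their summed level was 400 (WT) and 69.3 (ESAM-null) FPKM, most of it Hba-a2 at 373 and 57.1 FPKM. Hepatocyte markers summed to 7.10 (WT) and 14.2 (ESAM-null) FPKM. Alb and Ttr were at 0 in ESAM-null, and Afp and Apoa1 (1.09 and 7.52 FPKM) were higher there. Macrophage markers summed to 9.62 and 5.53 FPKM, with C1qa and Emr1 at 0 in ESAM-null, C1qb lower and Csf1r higher. Endothelial markers summed to 3.21 and 4.60 FPKM. Lyve1 was at 0 in ESAM-null, Kdr was lower, and Cdh5 (0.95 and 3.33 FPKM) and Stab2 were higher. These lists thus went both ways. The part of these other cell types in the results below was not tested. In bulk samples, fewer cells of a type and less RNA per cell cannot be told apart.

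Respiratory chain genes were among the more abundant messages in both libraries, and nearly all of them had a higher FPKM in the ESAM-null library. Of the 84 symbols, 80 reached 1 FPKM in at least 1 library, and these ranged from 4.69 FPKM to 1001 FPKM in WT and from 3.08 FPKM to 1673 FPKM in ESAM-null. The ratio of ESAM-null to WT was above 1 for 78 of the 80 and below 1 for 2, Uqcrc1 and Cox7a1. The median log2 ratio was 0.57, with a range of -0.61 to 1.92. Over all 12066 genes at 1 FPKM in at least 1 library, 50% had a ratio above 1 and the median log2 ratio was 0.01. The genes that did not reach 1 FPKM were Cox6a2, Cox7b2, Cox8b and Cox8c, isoforms of complex IV subunits that are known from muscle, heart or testis.

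Most of these differences were below 2-fold. Atp5k, Ndufs5 and Cox4i2 were at least 2-fold higher in the ESAM-null library, 3 of 80, where 7.42% of all genes were. None of the 80 was at least 2-fold lower, where 12.8% of all genes were. At 1.5-fold, 35 were higher, against 17.4% of all genes, and Cox7a1 was the 1 lower. Reads behind each value could be approximated from the steps between low FPKM values, about 9220000 in WT and 11200000 in ESAM-null over all genes, and they gave a 95% interval for each ratio that covers counting error only. This interval lay above 1 for 77 genes, below 1 for Uqcrc1, and on both sides of 1 for Cox7a1 and Atp5s. No such count over all genes is given here. A ratio above 1, whatever its interval, was found for 84.7% of all genes at a mean of 100 FPKM or more.

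The summed FPKM of the symbols was 32086 in WT and 48786 in ESAM-null, a ratio of 1.52. As a share of all summed FPKM, which does not depend on how the libraries were scaled to each other, they held 4.27% in WT and 5.35% in ESAM-null, 1.08 percentage points more. Such a gain was not particular to them. All genes at a mean of 100 FPKM or more held 69.7% in WT and 76.2% in ESAM-null, and cytosolic ribosomal protein genes 15.9% and 20.7%. The direction of single genes depends on the scaling. When each library was rescaled to the same total, every log2 ratio fell by 0.28, and 66 of the 80 genes remained above 1, with a median log2 ratio of 0.29. Under that scaling Ndufs5 and Cox4i2 were still at least 2-fold higher, and Atp5k was not, at a log2 ratio of 0.79. Scaling on the median gene, the upper quartile or a trimmed mean moved the ratios by at most 0.07 and left 78 above 1.

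**Figure D1:**
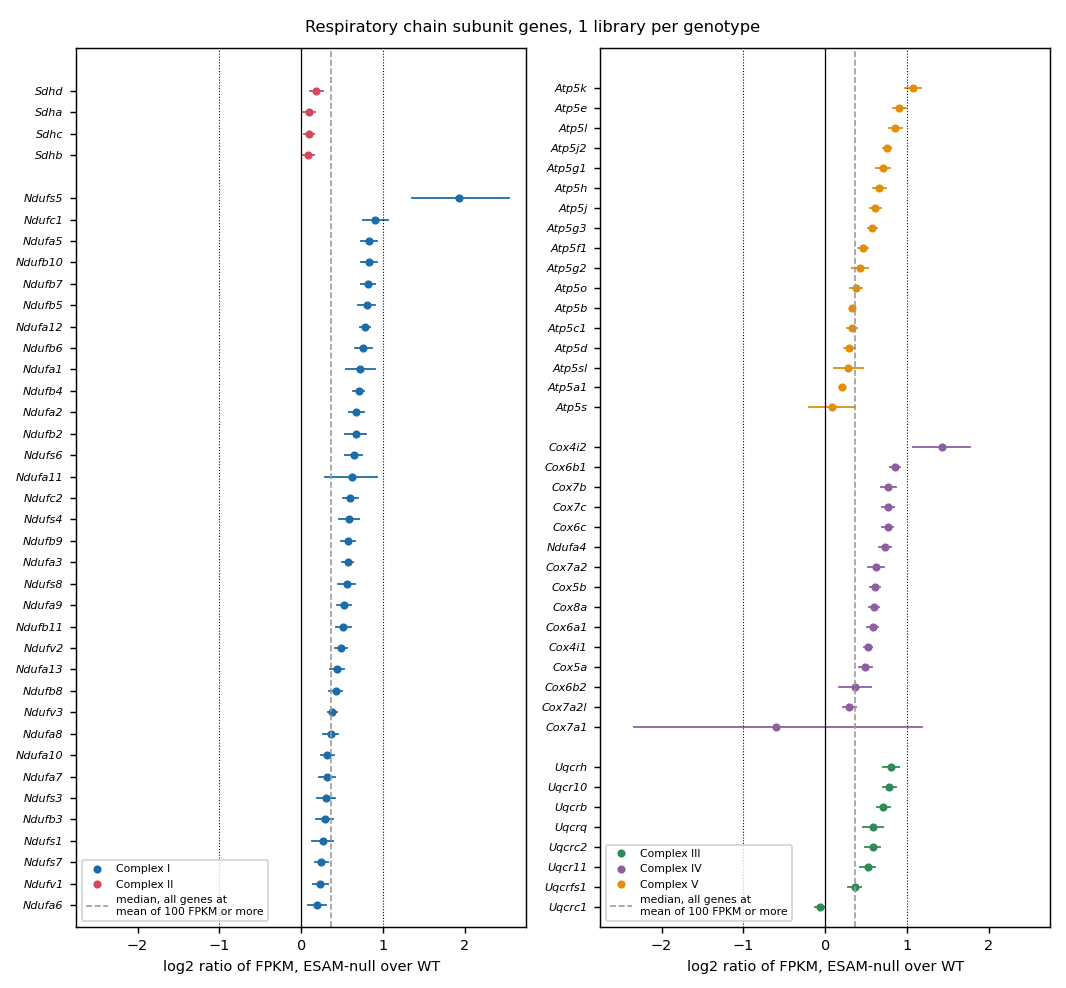
Log2 ratio of FPKM (ESAM-null over WT, x axis) for the measured genes assigned to a complex, without 1 complex I gene, ordered within each complex. Points are the ratios of the 2 libraries, bars are 95% intervals for counting error only, dotted lines mark 2-fold, and the dashed line is the median of all genes at a mean of 100 FPKM or more (0.36). All but Uqcrc1 and Cox7a1 lie above 0 as deposited; with both libraries rescaled to the same total, every point moves left by 0.28, and the 4 complex II genes then lie below 0.

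The ratio was not the same at all levels of expression, and 71 of the 84 genes had a mean of 100 FPKM or more. At that level 84.7% of all 1311 genes had a ratio above 1, with a median log2 ratio of 0.36, and 70 of the 71 respiratory chain genes did, with a median of 0.57. At least 1.5-fold higher were 31 of the 71, against 23.5% of all genes at that level. At least 2-fold higher was 1, Atp5k, against 0.992%. The median log2 ratio of all genes went from -0.22 at 1 to 10 FPKM to 0.10 at 30 to 100 FPKM, 0.42 at 300 to 1000 FPKM and 0.63 at 1000 FPKM or more. Respiratory chain genes had medians of 0.36 (n = 23) at 100 to 300 FPKM, where all genes had 0.29, of 0.60 (n = 34) at 300 to 1000 FPKM, and of 0.74 (n = 14) at 1000 FPKM or more.

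**Figure D2:**
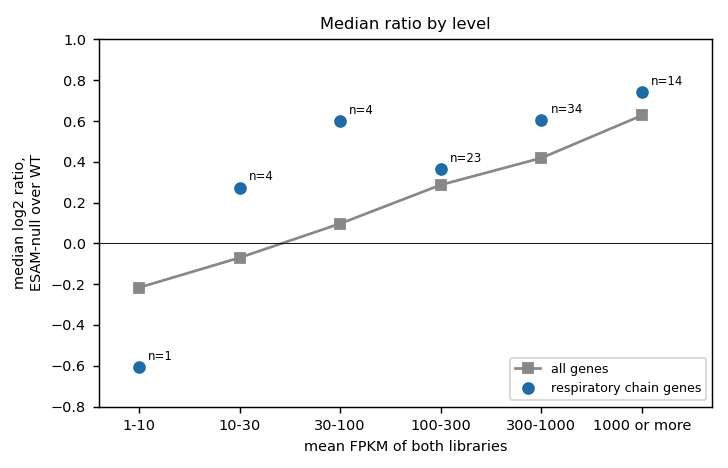
Median log2 ratio (ESAM-null over WT, y axis) by mean FPKM of both libraries (x axis), for all genes (squares) and for respiratory chain genes (circles, with their number). The median of all genes goes from -0.22 in the lowest class to 0.63 in the highest, and the respiratory chain genes lie above it in every class but the lowest, which holds only Cox7a1.

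mRNA length moved with the ratio as well. Among the 80 genes, Spearman's rho between log2 ratio and mRNA length was -0.55 and between log2 ratio and mean FPKM 0.44 (across genes of the same 2 libraries, which are not independent replicates). Among 1306 genes at a mean of 100 FPKM or more the corresponding values were -0.42 and 0.34. For mRNAs under 1000 nt at that level, the 48 respiratory chain genes had a median log2 ratio of 0.61 and all 481 genes one of 0.53. Of the 48, 28 were at least 1.5-fold higher, against 42.0% of all such genes, and 48 had a ratio above 1, against 91.3%. For longer mRNAs the median was 0.33 for the 23 respiratory chain genes and 0.26 for all 825 genes. Less the median of abundant genes with short mRNAs, 42 of the 80 log2 ratios were above 0 and 38 below, with a median of 0.036. The part of mRNA length and level in the result was not tested.

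**Figure D3:**
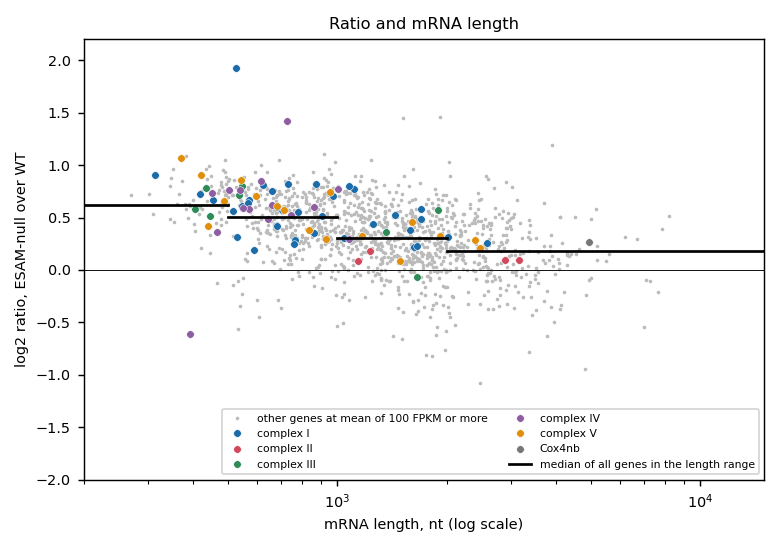
Log2 ratio (ESAM-null over WT, y axis) against mRNA length (x axis, log scale) for respiratory chain genes at any level (coloured by complex) and other genes at a mean of 100 FPKM or more (grey). Black lines are medians of all genes in 4 length ranges at a mean of 100 FPKM or more and go from 0.62 under 500 nt to 0.18 at 2000 nt or more; 3 genes below the y axis and 24 beyond the x axis are not drawn. The complex II genes (red), all of more than 1000 nt, have ratios near 0.

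Levels in both libraries were closely related. Pearson's r between the log2 FPKM of the WT and the ESAM-null library was 0.98 over the 80 genes, which share the same 2 libraries. Of the summed FPKM of the symbols, complex I held 30.2% in WT and 29.4% in ESAM-null, complex III 11.3% and 11.4%, complex IV 26.1% and 27.1%, and complex V 29.8% and 30.3%. Complex II held 2.52% and 1.80%.

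**Figure D4:**
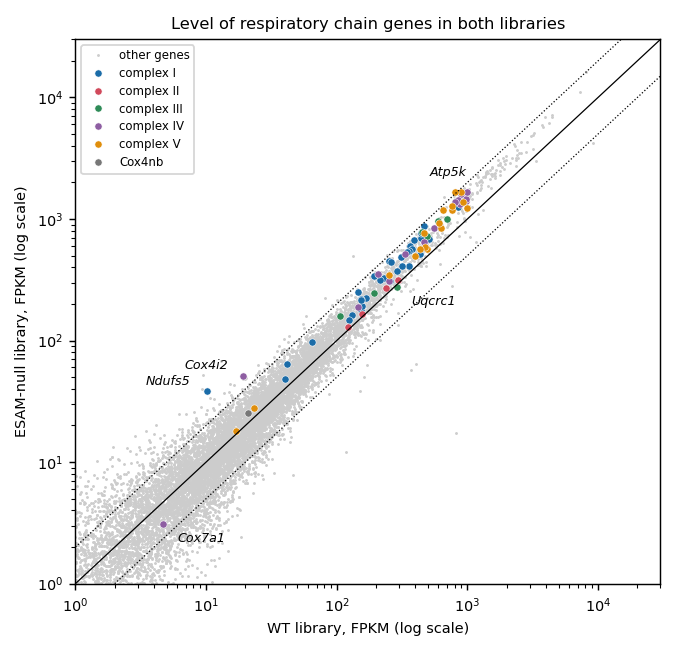
FPKM in the ESAM-null library (y axis, log scale) against the WT library (x axis, log scale) for genes at 1 FPKM or more in both. The solid line marks equal values and dotted lines 2-fold. Respiratory chain genes (coloured by complex) lie mostly between 100 and 1673 FPKM, just above the line of equal values, and the few below 100 FPKM include Ndufs5, Cox4i2 and Cox7a1.

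Complex I, the NADH dehydrogenase, was higher in the ESAM-null library in all 35 of its genes, with a median log2 ratio of 0.57 and summed levels of 9677 (WT) and 14338 (ESAM-null) FPKM. At a mean of 100 FPKM or more, 84.7% of all genes were higher too, and 91.3% of those with mRNAs under 1000 nt. Rescaled to the same total, 30 of the 35 stayed above 1. The core subunits, which carry the flavin and the iron-sulphur clusters, differed less between the libraries than the accessory subunits around them. The 7 nuclear core genes had a median log2 ratio of 0.26, at most 0.55, and none reached 1.5-fold. The 28 accessory genes had a median of 0.61 (0.19 to 1.92), and 16 of them reached 1.5-fold. Of all genes, 17.4% were at least 1.5-fold higher. At a mean of 100 FPKM or more, 42.0% of all genes with mRNAs under 1000 nt were, and 104 of 825 with longer mRNAs. The median mRNA length was 1623 nt for core and 693.5 nt for accessory genes, and the part of length in this difference was not tested.

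Of the core genes, Ndufv1, the NADH-binding flavoprotein, was at 125 (WT) and 147 (ESAM-null) FPKM. Its partner Ndufv2 was at 155 and 216 FPKM. Ndufs1, the largest iron-sulphur subunit, was at 40.4 and 48.4 FPKM, the lowest core level in both libraries. Ndufs7, an iron-sulphur subunit near the ubiquinone site, was at 437 and 517 FPKM. Ndufs3 was at 157 and 194 FPKM. Ndufs8, an iron-sulphur subunit of the arm that leads to ubiquinone, had the highest ratio of the core at 1.47 (95% interval 1.36 to 1.58), from 214 to 314 FPKM.

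Among accessory genes, Ndufa3, of the membrane arm, had the highest level, at 852 (WT) and 1260 (ESAM-null) FPKM. Ndufa6 had the lowest ratio at 1.14 (1.06 to 1.23), with 358 and 409 FPKM. Ndufs5, a small subunit of the intermembrane space face, had the highest, at 10.2 (WT) and 38.7 (ESAM-null) FPKM. This was 3.79-fold (2.55 to 5.82), on about 31 and 128 reads. In both libraries Ndufs5 was the lowest of all complex I genes, and the next, Ndufs1, was at 40.4 and 48.4 FPKM. A processed pseudogene, BC002163, shares 32.4% of the 75-base windows of the Ndufs5 mRNA, and reads from them could be counted for either. BC002163 was at 6.54 (WT) and 5.67 (ESAM-null) FPKM, and the sum of both records was 2.65-fold higher in ESAM-null. Ndufs5 lies on the minus strand of chromosome 4 at 123712710 to 123718186 (GRCm38).

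Complex II, succinate dehydrogenase, stood closest to equal between the libraries as deposited, an order that depends on the scaling. Sdha, the flavoprotein that oxidises succinate, was at 122 (WT) and 130 (ESAM-null) FPKM. Sdhb, the iron-sulphur subunit, was at 294 and 312 FPKM. The membrane anchors Sdhc and Sdhd, which bind ubiquinone, were at 155 and 165 FPKM and at 238 and 270 FPKM. The 4 ratios lay between 1.06 and 1.13, with a median log2 ratio of 0.09, and each counting interval lay above 1, the closest being that of Sdhb (1.01 to 1.12). All 4 were above 1 as deposited and below 1 with the libraries rescaled to the same total. There the median log2 ratio was -0.18, and that of complex V was 0.18. Less the median of all genes at a mean of 100 FPKM or more, complex II had a median of -0.26. The other complexes then had medians of 0.10 to 0.25. Their mRNAs were 1142 to 3171 nt long, against a median of 738.5 nt for the respiratory chain. Over all genes of 1000 to 2000 nt at a mean of 100 FPKM or more the median log2 ratio was 0.30, and at 2000 nt or more it was 0.18.

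Complex III, the cytochrome bc1 complex, had a median log2 ratio of 0.58 over 8 genes and summed levels of 3638 (WT) and 5583 (ESAM-null) FPKM. Its 2 core proteins, which have no redox centre, went opposite ways. Uqcrc1 was at 290 (WT) and 277 (ESAM-null) FPKM, a ratio of 0.955 (0.914 to 0.998), and was below 1 under each of the 4 other scalings too. Uqcrc2 was at 107 and 159 FPKM, a ratio of 1.49 (1.40 to 1.59), although 26.6% of its mRNA overlaps Pdzd9 on the other strand and the library kit does not keep strand. Uqcrfs1, the Rieske iron-sulphur protein, was at 191 and 246 FPKM. The 5 small accessory subunits had a median log2 ratio of 0.71, from 0.52 to 0.80. Of these Uqcr10 had the highest level, 821 and 1413 FPKM, and Uqcrh, the hinge protein that helps cytochrome c bind, the highest ratio at 1.74 (1.64 to 1.86), with 450 and 785 FPKM.

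Complex IV, cytochrome c oxidase, holds most of the isoform pairs. Its 11 common nuclear subunits, counting Ndufa4, which was first assigned to complex I, were all higher in the ESAM-null library, with a narrow range of log2 ratios from 0.49 to 0.85 and a median of 0.62. Among all genes at a mean of 100 FPKM or more with mRNAs under 1000 nt, 91.3% were higher, with a median of 0.53. All 11 stayed above 1 with the libraries rescaled to the same total. Ndufa4 had the highest level, 1001 (WT) and 1664 (ESAM-null) FPKM, and Cox6b1, on the intermembrane space side, the highest ratio, 1.80 (1.73 to 1.88), with 892 and 1611 FPKM.

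Cox4i2 is the isoform of subunit 4 known from lung and from the response to low oxygen. It was at 18.995 (WT) and 50.9 (ESAM-null) FPKM, 2.68-fold higher (2.11 to 3.41), on about 94 and 273 reads. Its common partner Cox4i1 was at 980 and 1408 FPKM, a ratio of 1.44 (1.39 to 1.49). Within each library, Cox4i2 thus made up 1.90% (95% exact binomial interval 1.54 to 2.32) of the pair in WT and 3.49% (3.09 to 3.92) in ESAM-null, a share that no scaling changes. Cox4i1 remained the main isoform in both. The Cox4i2 mRNA shares no 75-base window with another gene, whereas Cox4i1 overlaps Emc8 on the other strand over 18.0% of its length. Cox4i2 lies on chromosome 2 at 152753916 to 152765039 (GRCm38).

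Cox6b2, the isoform of subunit 6b known from testis, was well detected, at 146 (WT) and 187 (ESAM-null) FPKM. It made up 14.0% (12.7 to 15.4) of the sum with Cox6b1 in WT and 10.4% (9.59 to 11.3) in ESAM-null, so that its share went the opposite way to that of Cox4i2. Cox7a1, the heart and muscle isoform of subunit 7a, was at 4.69 and 3.08 FPKM on about 8 and 6 reads, a ratio of 0.657 (0.197 to 2.27) whose direction could not be told at this depth. Its common partner Cox7a2 was at 336 and 515 FPKM. Cox7a2l, a related gene whose product links complexes III and IV in supercomplexes, was at 252 and 309 FPKM and made up 42.5% (40.9 to 44.2) of the sum of the Cox7a genes in WT and 37.3% (36.1 to 38.6) in ESAM-null.

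The other isoforms were at the limit of detection. Cox6a2 was at 0.24 FPKM in WT, about 1 read, and at 0 in ESAM-null, beside 884 and 1323 FPKM of Cox6a1. Cox8b and Cox8c were at 0 in both libraries beside 975 and 1470 FPKM of Cox8a. A count of 0 allows up to 3 reads, which given the mRNA lengths would be an FPKM share of 0.205% (WT) and 0.125% (ESAM-null) for Cox8b and of 0.127% and 0.0777% for Cox8c. Cox7b2 was at 0 in both beside 207 and 353 FPKM of Cox7b, and 3 reads of it would be a share of 0.452% and 0.244%.

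The genes assigned to complex V, the ATP synthase, were all 17 higher in the ESAM-null library, with a median log2 ratio of 0.46. A ratio above 1 was found for 84.7% of all genes at a mean of 100 FPKM or more. With the libraries rescaled to the same total, 15 of 17 were. The 17 and their median include Atp5s and Atp5sl, which are not structural subunits and had log2 ratios of 0.08 and 0.28. The parts of the synthase differed. The F1 genes, for the catalytic head, had a median log2 ratio of 0.33 (n = 5), the peripheral stalk genes one of 0.54 (n = 4), the c-ring genes one of 0.58 (n = 3), and the genes for the small membrane subunits e, f and g one of 0.86 (n = 3). The median mRNA length was 1166 nt for F1, 759 nt for the stalk, 596 nt for the c-ring and 544 nt for subunits e, f and g.

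In the head, Atp5a1 and Atp5b, the alpha and beta subunits that form the catalytic sites, were at 488 and 564 FPKM and at 988 and 1240 FPKM. Atp5c1, the gamma subunit of the rotor shaft, was at 395 and 495 FPKM, and Atp5d, the delta subunit, at 477 and 585 FPKM. These 4 had log2 ratios from 0.21 to 0.33. Atp5a1 is the 1 of them that went below 1, at a log2 ratio of -0.07, with the libraries rescaled to the same total. Atp5e, the small epsilon subunit, stood apart at 885 (WT) and 1658 (ESAM-null) FPKM, a ratio of 1.87 (1.77 to 1.98), and its mRNA of 421 nt is the shortest of the head.

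The c subunit, whose ring turns as protons pass, is encoded by 3 genes for the same mature protein. Atp5g1 was at 468 (WT) and 766 (ESAM-null) FPKM, Atp5g2 at 633 and 847 FPKM, and Atp5g3 at 932 and 1389 FPKM. Their order was the same in both libraries. Atp5g1 made up 23.0% (22.1 to 24.0) of their sum in WT and 25.5% (24.7 to 26.3) in ESAM-null, Atp5g2 31.1% (29.9 to 32.4) and 28.2% (27.3 to 29.2), and Atp5g3 45.8% (44.7 to 47.0) and 46.3% (45.4 to 47.2). All windows of the Atp5g2 mRNA and 59.6% of those of Atp5g1 recur in processed pseudogenes, so the split between the 3 genes is uncertain.

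Atp5k encodes subunit e, which with subunit g takes part in pairing ATP synthases into dimers. It was at 796 (WT) and 1673 (ESAM-null) FPKM, 2.10-fold (1.97 to 2.24), the highest level of any respiratory chain gene in the ESAM-null library. Its neighbours in the membrane, Atp5l (subunit g) and Atp5j2 (subunit f), were at 652 and 1180 FPKM and at 763 and 1283 FPKM. The Atp5k mRNA, of 371 nt, shares no window with another gene, whereas 76.0% of the windows of Atp5l recur elsewhere. Atp5k lies on chromosome 5 at 108433246 to 108434399 (GRCm38). Atp5s and Atp5sl, which the rule took for their symbols, are not structural subunits of the synthase. Atp5s, at 16.9 and 17.9 FPKM, had the lowest ratio of the group, 1.06 (0.874 to 1.28), and Atp5sl was at 23.1 and 28.1 FPKM.

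**Figure D5:**
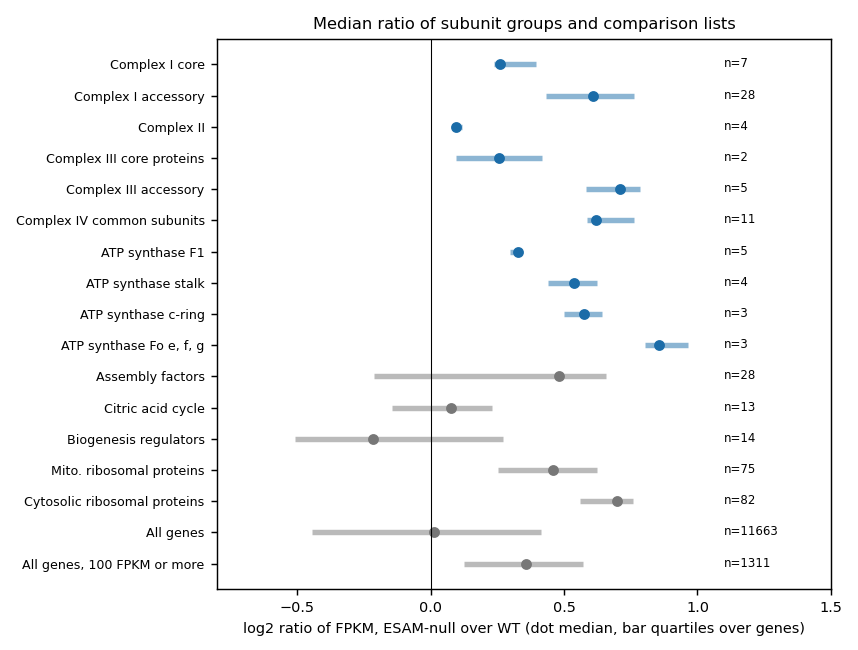
Median log2 ratio (ESAM-null over WT, dots) with quartiles over genes (bars) for groups of respiratory chain subunits (blue) and for other gene lists (grey), with the number of genes; bars are the spread over genes and not an error. Complex II, at 0.09, and the core and F1 groups, at 0.26 and 0.33, lie to the left of the accessory and small membrane subunits; under rescaling to the same total every dot moves left by 0.28, which puts complex II, the complex I core and the complex III core proteins below 0, as well as the citric acid cycle and all genes.

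Reads shared with other genes bear on many of these values. A total of 36 of the 84 mRNAs had at least 1 window of 75 bases that recurs in another annotated gene, and 5 of them, Atp5g2, Atp5l, Atp5g1, Atp5h and Cox7c, had more than 50% of their windows shared. Of the 41 measured genes with neither a shared window nor an exon overlap, 39 had a ratio above 1, 2 were at least 2-fold higher, and the median log2 ratio was 0.38. Of the 39 others, 39 had a ratio above 1 and the median was 0.58. At a mean of 100 FPKM or more 84.7% of all genes had a ratio above 1, and 7.42% of all genes were at least 2-fold higher. The median mRNA length was 780 nt for the 41 and 680 nt for the 39, and the median WT level 290 and 437 FPKM. The part of length and level in this difference was not tested. The sources used here do not say how reads with several matches were treated.

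The promoters of respiratory chain genes are known for binding sites of NRF-1, of ETS factors such as GABP (NRF-2) and of YY1. RefSeq windows from 250 bases before to 50 bases after the start (GRCm38.p6) were matched for 69 of the 84 genes and searched on both strands. The NRF-1 core GCATGCGC was in 10 of the 69 (14.5%) and in 3.05% of 27025 gene promoters. The ETS core CCGGAAG was in 16 (23.2%) and 9.93%, the YY1 core AAGATGGCG in 8 (11.6%) and 1.64%, and CCAAT in 31 (44.9%) and 41.1%. The ETS core ends and the YY1 core begins with AAG, so these can overlap, as can other pairs at their ends, and a match is a description of sequence only. Median log2 ratios with and without a motif were 0.47 and 0.58 for NRF-1, 0.64 and 0.49 for ETS, 0.60 and 0.55 for YY1, and 0.58 and 0.52 for CCAAT.

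The 150 bases before the start are shown, with those motifs in capitals on either strand, for the complex V and complex I genes of the highest ratio, for a complex II gene near equal, and for 1 gene, Atp5j of the peripheral stalk, chosen because it holds both the YY1 and the ETS core.
Atp5k, chr5:108434400-108434549, minus strand: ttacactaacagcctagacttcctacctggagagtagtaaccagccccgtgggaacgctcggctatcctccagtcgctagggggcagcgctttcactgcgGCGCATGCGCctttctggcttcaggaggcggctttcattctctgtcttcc
Ndufs5, chr4:123718187-123718336, minus strand: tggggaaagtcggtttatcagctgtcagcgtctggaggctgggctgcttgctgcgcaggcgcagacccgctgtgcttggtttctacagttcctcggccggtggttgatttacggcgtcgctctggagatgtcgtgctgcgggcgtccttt
Sdhb, chr4:140961121-140961270, plus strand: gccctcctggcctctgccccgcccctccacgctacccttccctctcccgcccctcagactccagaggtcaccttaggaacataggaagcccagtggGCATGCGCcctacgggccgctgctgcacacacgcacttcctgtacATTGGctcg
Atp5j, chr16:84834977-84835126, minus strand: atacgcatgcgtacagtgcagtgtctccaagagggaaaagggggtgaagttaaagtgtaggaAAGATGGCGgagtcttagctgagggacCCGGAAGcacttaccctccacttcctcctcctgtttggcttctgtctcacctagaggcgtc
The NRF-1 core is in the window of Atp5k, in both orientations that overlap, and in that of Sdhb, whose log2 ratios were 1.07 and 0.08. The longer windows searched for Atp5k and Sdhb also hold the ETS core, outside the bases shown. None of the 4 motifs is in the bases shown for Ndufs5. Atp5j was at 607 (WT) and 928 (ESAM-null) FPKM, a ratio of 1.53 (1.46 to 1.60).

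Subunits and partners that the symbol rule leaves out went with the others. Cyc1, the cytochrome c1 of complex III, was at 221 (WT) and 302 (ESAM-null) FPKM, and Cycs, the somatic cytochrome c that carries electrons to complex IV, at 87.6 and 139 FPKM. Of 7 such genes, 6 were measured and all 6 had a higher level in ESAM-null (median log2 ratio 0.67), while Ndufa4l2 was at 0 in both. Of all genes at a mean of 100 FPKM or more, 84.7% had a higher level in ESAM-null. Genes encoded in mitochondrial DNA were not analysed here.

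Assembly factors put the complexes together. Of a list of 46, 28 matched a symbol and the rest were not analysed here. Of the 28, 20 were higher in ESAM-null and 8 lower, with a median log2 ratio of 0.48. Their median level was 23.5 (WT) and 31.7 (ESAM-null) FPKM. Of all genes at a mean of 10 to 30 FPKM 44.7% were higher, and of those at 30 to 100 FPKM 60.1%. Of the 28 assembly factors, 1 was at least 2-fold higher, where 7.42% of all genes were. At least 2-fold lower were 2 of them, where 12.8% of all genes were. Tmem126b, a factor of complex I assembly, was higher at 15.2 and 44.1 FPKM, 2.90-fold (2.53 to 3.31). Lyrm7, a factor of complex III assembly, was lower at 2.58 and 0.44 FPKM, and Taco1, a translation activator of a complex IV subunit, at 10.8 and 3.37 FPKM.

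Of 14 measured regulators of mitochondrial biogenesis, 6 were higher and 8 lower, with a median log2 ratio of -0.22. Most were low in level, and of all genes at a mean of 10 to 30 FPKM 44.7% had a ratio above 1, with a median of -0.07. Polg, the mitochondrial DNA polymerase, was the 1 past 2-fold, 2.17-fold lower at 19.2 and 8.84 FPKM, where 12.8% of all genes were that much lower. Citric acid cycle enzymes, 7 higher and 6 lower of 13, had a median of 0.08, near that of complex II. Their median level was 71.8 (WT) and 75.2 (ESAM-null) FPKM and their median mRNA length 2544 nt. Of all genes at a mean of 30 to 100 FPKM, 60.1% were higher, with a median of 0.10. The part of level and length in these medians was not tested. By comparison, 81 of 82 cytosolic ribosomal protein genes had a ratio above 1, with a median of 0.70. Of all genes at a mean of 1000 FPKM or more, 96.3% did. Of 75 mitochondrial ribosomal protein genes 70 did, with a median of 0.46. Of all genes at a mean of 30 to 100 FPKM 60.1% did, and of those at 100 to 300 FPKM 81.0%. The respiratory chain median of 0.57 lay between the medians of both ribosomal lists. Rescaling to the same total moves all of these medians down by 0.28.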

How the data were processed

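FL LSK CD48- cells gave 1 WT and 1 ESAM-null library (SMART-Seq v4, sheared to 200 to 500 bp, 75 bp single-end reads, no strand). The authors deposited FPKM per gene symbol. Per the submitters' processing notes, the tools were Cuffnorm 2.2.1, SAMtools 0.1.19, Bowtie2 2.2.3 and TopHat2 2.0.13, on mm10. The sources used here do not give the annotation, the library scaling or the treatment of multiply mapped reads.

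Ratios of deposited FPKM were computed in Python 3.11.15 (pandas 2.3.3, scipy 1.17.1), without pseudocount, for genes at 1 FPKM in at least 1 library. A median log2 ratio took genes above 0 in both. Reads were approximated from FPKM steps, at 9.37 and 10.2 reads per FPKM per kb, and about 80.2% and 80.5% of 253 and 149 low values lay within 0.1 of a whole read. Summed over genes this came to 9220000 reads in WT and 11200000 in ESAM-null. Intervals are exact binomial at 95%. mRNA lengths are those of GENCODE on GRCm38, with values for 98.5% of genes, and 80 symbols matched directly and 4 by an older symbol.

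The genes and lists were chosen with earlier results of these data known. Genes were named by a rule fixed beforehand: per complex the highest and lowest mean level and ratio, all past 2-fold, isoform families, and the core, complex II and F1 subunits, plus Esam, Cyc1, Cycs and list members past 2-fold. Outside this rule, Atp5j, Atp5j2, Atp5l, Atp5sl, Cox4nb, Ndufa4l2, BC002163 and the genes named for shared reads were chosen after their values were seen. The ratio and interval methods were tested on simulated data. Alternatives were other filters, pseudocounts, scalings, folds and memberships. Centring on abundant genes and leaving out genes with shared reads were added after seeing the data. The values of 1 complex I gene are not reported here, although it is in the counts and medians.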

Additional observations from a re-analysis of the deposited data

How the results depend on the processing

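No paired analysis was possible because each genotype had 1 library, and for the same reason no replicate could be left out. The number of respiratory chain genes at least 2-fold lower was 0 and became 1 without the filter on low values (Cox6a2, on about 1 read) and 1 at a 1.5-fold threshold. The number at least 2-fold higher was 3, and it was 35 at 1.5-fold and 1 at 3-fold. The median log2 ratio of 0.57 was 0.29 with each library rescaled to a total of 1000000, 0.50 with upper quartile scaling, and 0.55 with median and with trimmed mean scaling. Less the median of genes at a mean of 100 FPKM or more it was 0.21, less that of such genes with an mRNA under 1000 nt it was 0.036, and for genes without shared windows or exon overlap it was 0.38. These 3 settings were chosen after seeing the data. The gain in the share of summed FPKM stayed between 1.08 and 1.18 percentage points. For 40 named genes, 191 values under other scalings and pseudocounts moved by less than their counting interval, 49 moved by more, and none past 2-fold changed sign, while the 4 complex II genes and others of small ratio went below 0 under the common total. Depth limits the isoforms with few reads, and the values rest on 1 library per genotype.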
